A study of Rattus norvegicus with 9 samples.

Results

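The genes described here encode 9 G protein-coupled receptors of the pancreatic islet, out of 14217 genes with a probe set of their own on the array: Glp1r, Gipr, Gcgr, Chrm3, Adra2a, Sstr2, Sstr3, Sstr5 and Gpr146. Of these, 8 were taken for their known part in tuning insulin secretion, though with earlier results of these data known. Gpr146 was taken because its measured difference between the diets stood out, though 69 of all genes had a larger decrease. The values of Gpr146 are therefore a description and carry no test. Islets were prepared by collagenase digestion from Wistar rats in 2 groups, with 4 samples of lean rats on standard chow and 5 samples of obese rats on a cafeteria diet, rich in calories, given over 30 days. Total RNA of each sample was hybridised to 1 Affymetrix Rat Genome 230 2.0 array. The labels name no age or sex and do not say whether animals were pooled. The tests therefore set each difference against the spread between samples within the 2 groups, which may not be that between single rats.

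Receptors of this superfamily span the membrane and pass the binding of a hormone or transmitter to G proteins inside the cell. In the beta cell, receptors coupled to Gs raise cyclic AMP and amplify the insulin response to glucose, receptors coupled to Gq act through phospholipase C and calcium, and receptors coupled to Gi lower cyclic AMP and restrain secretion. The receptors for the gut incretin hormones and for glucagon belong to the first kind, the muscarinic receptor for acetylcholine to the second, and the receptors for adrenaline and somatostatin to the third. Gpr146 is an orphan receptor, studied mainly for its effect on blood cholesterol through the liver; a role as a receptor for C-peptide has been proposed and disputed.

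The samples had the levels of islets: on the deposited log2 scale (RMA, which removes background and equalises the arrays) the beta cell genes Ins1 and Ins2 had lean means of 13.43 ± 0.02 and 14.19 ± 0.06 (SD, n = 4), and Gcg of alpha cells and Sst of delta cells 13.65 ± 0.05 and 13.15 ± 0.05. The tissue was measured whole, so fewer cells of a type and less RNA per cell cannot be told apart. Markers of other cell types varied between arrays. Immune markers were lower under the cafeteria diet in 18 of 19 measured genes, with per-array scores (the mean deviation of the list from its mean over 9 arrays) of -0.090 to 1.13 in lean and -0.35 to -0.089 in cafeteria samples, and lean replicate 3 held the 1.13. Acinar markers were higher in 16 of 17 genes, with scores of -0.62 to 0.16 and -0.90 to 0.62. The 3 delta cell markers Sst, Hhex and Rbp4 were lower, with scores of 0.03 to 0.28 in lean samples and -0.46 to 0.30 in cafeteria samples; cafeteria replicate 1 held the 0.30, and replicates 3 and 5 lay at -0.46 and -0.44. All 5 measured alpha cell markers were also lower, with scores of -0.055 to 0.33 in lean and -0.31 to 0.19 in cafeteria samples. The alpha cell score was not used as a covariate. RMA values have no zero, so no marker is listed at 0. The 3-prime minus 5-prime signal of the actin and Gapdh control probe sets, a sign of RNA quality, ranged from 1.42 to 1.80 log2 in lean and from 1.21 to 1.74 in cafeteria samples.

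The promoters of Gpr146 and Glp1r are shown because these genes carry the difference that set the selection and the main incretin signal of the beta cell. Each is the 250 bases before the gene's start, 5′ to 3′ on the gene's strand, from RefSeq on build GRCr8. That of Gpr146 lies at chr12:20381012-20381261 on the minus strand and that of Glp1r at chr20:8973143-8973392 on the plus strand. Capitals mark the GC box GGGCGG on either strand, with overlapping copies joined.
Gpr146: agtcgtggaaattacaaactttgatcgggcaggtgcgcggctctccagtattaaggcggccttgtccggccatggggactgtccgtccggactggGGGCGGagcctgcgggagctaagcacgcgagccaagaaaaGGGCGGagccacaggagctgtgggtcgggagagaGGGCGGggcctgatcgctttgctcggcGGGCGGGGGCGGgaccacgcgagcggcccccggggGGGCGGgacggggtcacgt
Glp1r: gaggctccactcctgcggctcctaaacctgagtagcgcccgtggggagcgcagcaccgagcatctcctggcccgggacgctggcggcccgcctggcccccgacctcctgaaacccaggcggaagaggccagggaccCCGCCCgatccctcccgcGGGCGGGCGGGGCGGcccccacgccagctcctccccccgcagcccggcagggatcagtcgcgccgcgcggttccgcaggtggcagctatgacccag
The stretch held 6 GC boxes in Gpr146 and 4 in Glp1r. The table matched 8 of the 9 receptors (9 promoters, with 2 for Gcgr), and 6 of these 9 promoters held a GC box, against 30.5% of all 33469 promoters of this length. These 9 promoters were 56% to 75.6% G and C, where the median of all promoters was 51.2%. TGACG, the core letters of the cyclic AMP response element, was in 2 of the 9 (Sstr2 and Chrm3), against 18.2% of all, and the E-box CACGTG and the TATA box TATAAA were in 0, against 5.59% and 12.9%. The motifs were searched on both strands. These matches describe the letters of the promoters and were not measured as binding in the islets.

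None of the 8 receptors chosen for function passed the test, and the receptors did not share a direction. Differences were taken as cafeteria minus lean on the log2 scale, with the moderated standard error (SE) of limma fitted over all 31042 probe sets, and the threshold was a Benjamini-Hochberg adjusted p of 0.05. By limma 0 of 14217 genes passed it (0%), and the adjusted p of the 8 receptors ran from 0.844 to 0.991. At an unadjusted p under 0.05 the count was 0 of 8, where 3.28% of all genes were lower and 3.42% higher. Of the 9 receptors, 5 had lower and 4 had higher means under the cafeteria diet. The median difference was -0.047 over all 9 and -0.016 over the 8 without Gpr146, beside 0.0025 over all genes, whose median SE was 0.098. The levels below are not set against each other between genes, since the brightness of a probe set depends on its probes.

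**Figure D1:**
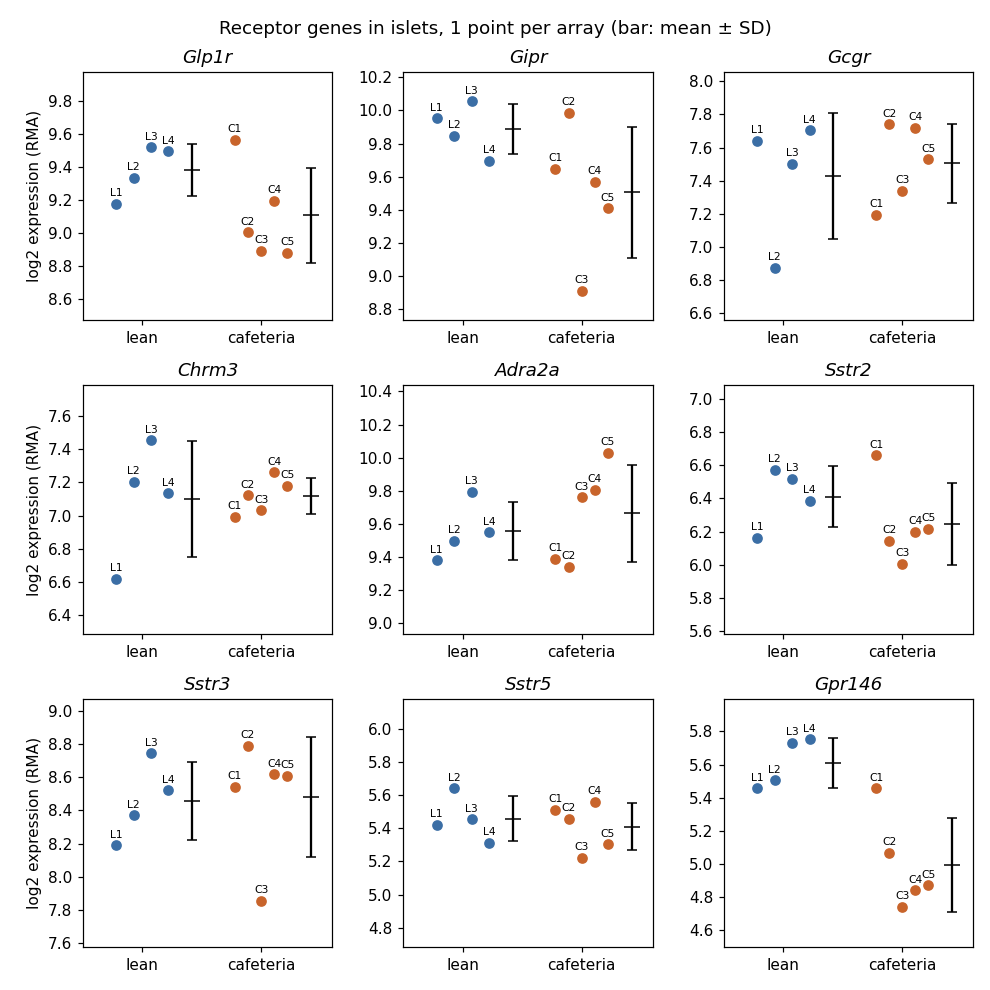
Log2 expression (RMA) of the 9 receptor genes, 1 point per array, for lean replicates (L1 to L4) and cafeteria replicates (C1 to C5), with the mean and SD of each group beside the points. The groups overlap in every gene but Gpr146, where L1 and C1 both stand at 5.46.

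The receptors for the 2 incretins had lower means under the cafeteria diet, but their groups overlapped. Glp1r encodes the receptor for glucagon-like peptide 1, released from the gut after a meal. Its log2 values were 9.18, 9.33, 9.52 and 9.49 in lean replicates 1 to 4 and 9.56, 9.004, 8.89, 9.19 and 8.88 in cafeteria replicates 1 to 5. Cafeteria replicate 1 was the highest of all 9 arrays, and 3 of the other cafeteria arrays were below every lean array. The means were 9.38 ± 0.16 (SD, n = 4) and 9.11 ± 0.28 (n = 5), a difference of -0.27 (SE 0.14; limma adjusted p = 0.844; 95% interval from -0.59 to 0.041), which is 1.21-fold. Without cafeteria replicate 1 the difference was -0.39, and without cafeteria replicate 5 it was -0.22.

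Gipr encodes the receptor for glucose-dependent insulinotropic polypeptide, the other incretin. The lean log2 values were 9.95, 9.85, 10.06 and 9.70, and the cafeteria values were 9.65, 9.99, 8.91, 9.57 and 9.41. All cafeteria arrays but replicate 2 were below the lowest lean array, and replicate 3 was the lowest of all. The means were 9.89 ± 0.15 (SD, n = 4) and 9.50 ± 0.39 (n = 5), a difference of -0.38 (SE 0.18; limma adjusted p = 0.844; 95% interval from -0.78 to 0.017), which is 1.30-fold. Without cafeteria replicate 3 the difference was -0.23, and without cafeteria replicate 2 it was -0.50. With the delta cell score as a covariate, an alternative chosen after seeing the data, Gipr differed by -0.12 (SE 0.18) and Glp1r by -0.041 (SE 0.13). With the immune score they differed by -0.31 and -0.24, and with the acinar score by -0.38 and -0.31. With the endothelial score Gipr differed by -0.25 and Glp1r by -0.41 (SE 0.16). With RNA quality Gipr differed by -0.41 (SE 0.18) and Glp1r by -0.33 (SE 0.079).

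Gcgr, the glucagon receptor, through which glucagon of alpha cells can act on beta cells, had overlapping groups. Its log2 values were 7.64, 6.87, 7.504 and 7.70 in lean and 7.20, 7.74, 7.34, 7.72 and 7.53 in cafeteria samples. Lean replicate 2 was the lowest array, and the other 8 arrays lay between 7.20 and 7.74. The means of 7.43 ± 0.38 (SD, n = 4) and 7.505 ± 0.24 (n = 5) differed by 0.075 (SE 0.18; limma adjusted p = 0.959; 95% interval from -0.32 to 0.47). The difference was -0.11 without lean replicate 2 and 0.35 with the endothelial score as a covariate. Of the 13 endothelial markers 11 had lower means, with scores of -0.023 to 0.095 in lean and -0.18 to 0.11 in cafeteria samples.

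Chrm3 encodes the muscarinic receptor through which the vagal transmitter acetylcholine acts on beta cells; acinar cells use the same receptor. Its log2 values were 6.62, 7.20, 7.45 and 7.13 in lean and 6.99, 7.12, 7.03, 7.26 and 7.18 in cafeteria samples. The 5 cafeteria arrays lay within 0.27 of each other, inside the lean range of 0.83 that lean replicates 1 and 3 spanned. The means of 7.10 ± 0.35 (SD, n = 4) and 7.12 ± 0.11 (n = 5) differed by 0.015 (SE 0.14; limma adjusted p = 0.991; 95% interval from -0.30 to 0.33). Without lean replicate 1 the difference was -0.15, and its sign also turned without cafeteria replicate 4 or 5. It was 0.10 (SE 0.16) with the acinar score as a covariate, 0.23 (SE 0.16) with the immune score and -0.031 (SE 0.18) with the delta cell score. The second probe set of the gene was dimmer, with means of 4.42 ± 0.34 and 4.59 ± 0.12, and differed by 0.17 (SE 0.14). Both probe sets had their lowest value in lean replicate 1 and their highest in lean replicate 3.

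Adra2a encodes the receptor through which adrenaline and noradrenaline restrain insulin secretion. The log2 values of its brighter probe set were 9.38, 9.50, 9.80 and 9.55 in lean and 9.39, 9.34, 9.76, 9.81 and 10.03 in cafeteria samples. Cafeteria replicates 4 and 5 were above every lean array, and replicate 2 was below every one. The means of 9.56 ± 0.17 (SD, n = 4) and 9.67 ± 0.29 (n = 5) differed by 0.11 (SE 0.15; limma adjusted p = 0.918; 95% interval from -0.22 to 0.44), and by 0.018 without cafeteria replicate 5. The second probe set differed by -0.10 (SE 0.42), the opposite sign, and spread over 2.28 log2 units within the lean group, from 5.70 in replicate 1 to 7.99 in replicate 3. The difference of the brighter probe set was 0.32 with the immune score as a covariate and -0.081 with the delta cell score.

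**Figure D2:**
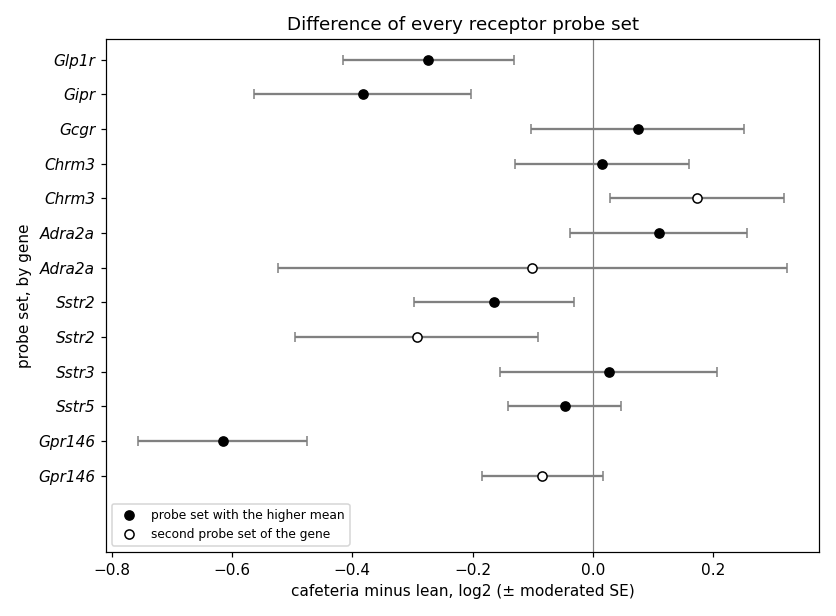
Difference between the groups (cafeteria minus lean, log2) of all 13 probe sets of the 9 receptors, with bars of 1 moderated SE; filled points are the probe sets that stand for a gene and open points the second probe sets. The 2 probe sets of Gpr146 stand at -0.62 and -0.084, and those of Adra2a on opposite sides of 0.

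The 3 somatostatin receptors, which couple to Gi, gave differences with intervals that span 0, as those of Glp1r and Gipr did. Sstr2 is the form best known for the action of somatostatin on alpha cells. Its brighter probe set had log2 values of 6.16, 6.57, 6.52 and 6.38 in lean and 6.66, 6.14, 6.01, 6.20 and 6.22 in cafeteria samples. Cafeteria replicate 1 was the highest array, the other 4 lay between 6.01 and 6.22, and lean replicate 1 lay among them. The means of 6.41 ± 0.18 (SD, n = 4) and 6.25 ± 0.25 (n = 5) differed by -0.16 (SE 0.13; limma adjusted p = 0.861; 95% interval from -0.46 to 0.13). The second probe set was nearly as bright, with means of 6.42 ± 0.18 in lean and 6.12 ± 0.45 in cafeteria samples. It differed by -0.29 (SE 0.20) with the same highest and lowest arrays, cafeteria replicates 1 and 3. The difference of the brighter probe set was -0.10 without cafeteria replicate 3, -0.27 without cafeteria replicate 1, -0.34 (SE 0.14) with the endothelial score as a covariate and 0.012 with the delta cell score.

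Sstr3, found on the primary cilia of rodent beta cells, had log2 values of 8.19, 8.37, 8.74 and 8.52 in lean and 8.54, 8.79, 7.86, 8.62 and 8.61 in cafeteria samples. Cafeteria replicate 3 stood alone, 0.33 below the lowest lean array, and the other 4 cafeteria arrays lay within or just above the lean range. The means of 8.46 ± 0.24 (SD, n = 4) and 8.48 ± 0.36 (n = 5) differed by 0.026 (SE 0.18; limma adjusted p = 0.988; 95% interval from -0.37 to 0.43). The difference was 0.18 without cafeteria replicate 3 and lay between -0.063 and 0.18 over the 9 arrays left out in turn.

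Sstr5, a form through which somatostatin restrains insulin release in rodents, had the smallest standard error of the 9 genes. Its log2 values were 5.42, 5.64, 5.45 and 5.31 in lean and 5.51, 5.46, 5.22, 5.56 and 5.30 in cafeteria samples. Both groups covered nearly the same range, with 2 cafeteria arrays below the lowest lean array and 1 lean array above the highest cafeteria array. The means of 5.46 ± 0.14 (SD, n = 4) and 5.41 ± 0.14 (n = 5) differed by -0.047 (SE 0.095; limma adjusted p = 0.951; 95% interval from -0.26 to 0.16). The level was close to the array medians of 5.28 to 5.32.

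Gpr146 had the largest difference of the 9 genes, which is why it was taken. The log2 values of its brighter probe set were 5.46, 5.51, 5.73 and 5.75 in lean and 5.46, 5.07, 4.74, 4.84 and 4.87 in cafeteria samples. The groups did not overlap, but lean replicate 1 and cafeteria replicate 1 were equal to 2 decimals, and the other 4 cafeteria arrays lay 0.39 or more below the lowest lean array. Across all genes the groups were separate with lower cafeteria values in 0.837%, and nothing is read from this for a gene selected by that contrast. The means were 5.61 ± 0.15 (SD, n = 4) and 4.996 ± 0.28 (n = 5), a difference of -0.62 (SE 0.14), which is 1.53-fold. The second probe set had log2 values of 4.54, 4.55, 4.47 and 4.78 in lean and 4.69, 4.48, 4.24, 4.53 and 4.56 in cafeteria samples. There the groups overlapped, with 1 cafeteria array below every lean array and 1 lean array above every cafeteria array, and the difference was -0.084 (SE 0.10). The mean of both probe sets differed by -0.35 (SE 0.11). Both are dim: their means over the 9 arrays were at the 49.5th and 32.1st percentile of all probe sets.

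With any 1 array left out, Gpr146 differed by -0.73 to -0.55, all 9 values lower. The difference was -0.61 with the immune score as a covariate, -0.61 with the acinar score, -0.68 with the endothelial score, -0.66 with RNA quality and -0.41 with the delta cell score. Gpr146 was selected by its difference on these same 9 arrays, so its sign in these fits is a description and no support.

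**Figure D3:**
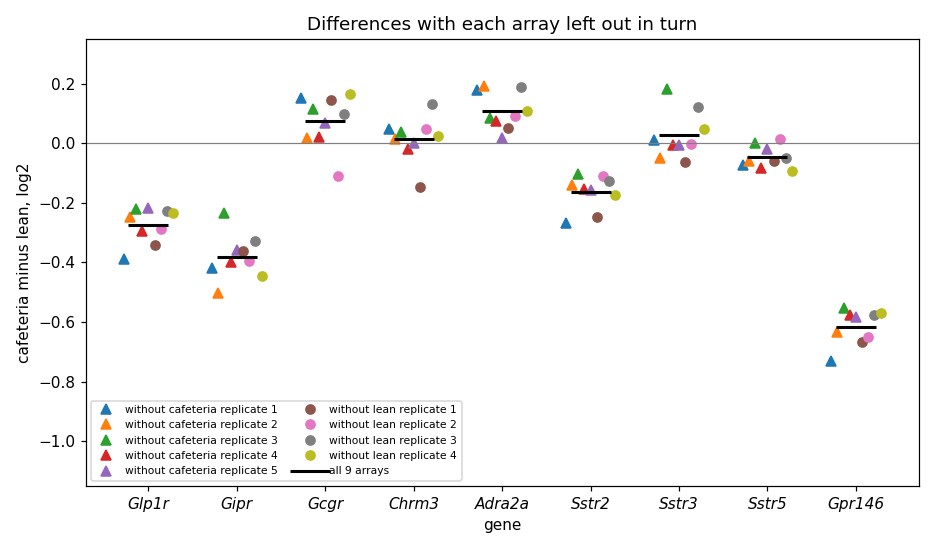
Difference between the groups (cafeteria minus lean, log2) of each receptor with 1 array left out in turn (circles, lean; triangles, cafeteria) beside the value from all 9 arrays (bars). Glp1r, Gipr, Sstr2 and Gpr146 stay below 0 and Adra2a stays above 0 in these 9 fits, whereas Gcgr, Chrm3, Sstr3 and Sstr5 fall on both sides.

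Cafeteria replicate 3 held the lowest value of 5 of the 9 receptors (Gipr, Sstr2, Sstr3, Sstr5 and Gpr146), where it held the lowest of 18.8% and the highest of 19.8% of all genes. Gpr146 was selected by its lower cafeteria values on these same arrays, so its place in this count is no support. The highest values were spread over more arrays: cafeteria replicate 1 held those of Glp1r and Sstr2 (and 10.2% of all genes), cafeteria replicate 2 those of Gcgr and Sstr3 (8.38%), and lean replicate 3 those of Gipr and Chrm3 (10.7%). The delta cell score was -0.46 in cafeteria replicate 3 and 0.30 in cafeteria replicate 1, and the RNA quality measure was 1.74 and 1.21; their part in these receptor values was not tested beyond the covariate fits above.

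**Figure D4:**
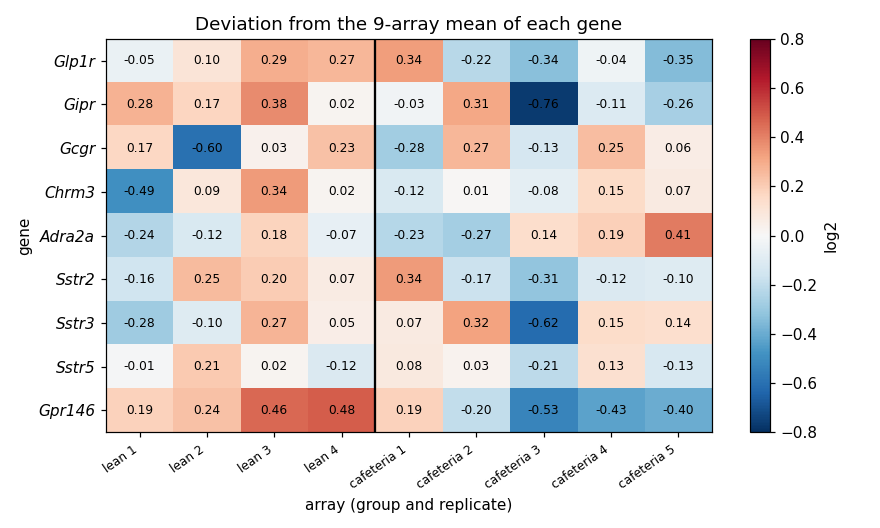
Deviation of each receptor from its mean over 9 arrays (log2, colour and printed value), with genes in rows and arrays in columns, lean left of the line. The column of cafeteria replicate 3 holds the lowest values of Gipr (-0.76), Sstr3 (-0.62) and Gpr146 (-0.53), and that of cafeteria replicate 1 the highest of Glp1r and Sstr2 (both 0.34).

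The genes whose pattern over the 9 arrays was most like that of a receptor were found by Pearson correlation among the probe sets that stand for genes. They are a description: all values share the same arrays and their normalization. For Gipr these were Zfp36 (r = 0.97), which encodes an RNA-binding protein of the immediate early response, Cited2 (r = 0.97), a transcriptional co-regulator, and Gstp1 (r = 0.97), a glutathione transferase, and 34 genes had an r over 0.9. For Glp1r these were Galnt4 (r = 0.96), a glycosyltransferase, Sfpq (r = 0.96), a splicing factor, and the uncharacterised LOC102554055 (r = 0.95), with 57 genes over 0.9. For Gpr146 these were Dph2 (r = 0.96), an enzyme of diphthamide synthesis, Dennd2b (r = 0.95) and Slc29a3 (r = 0.95), a nucleoside transporter, with 37 genes over 0.9. With the group means subtracted the correlations were 0.95 to 0.96 for the genes near Gipr, 0.93 to 0.95 for those near Glp1r and 0.87 to 0.94 for those near Gpr146. The genes were picked for their high correlation over these same arrays, so the second values are no separate support.

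Around the receptors, 137 genes of 6 pathway lists were measured, of 159 listed, and 0 passed the adjusted threshold by limma (0% of all genes did). At an unadjusted p under 0.05, 6 (4.38%) were lower and 2 (1.46%) higher under the cafeteria diet, against 3.28% and 3.42% of all genes. Of the 137 genes 82 had lower and 55 higher means, where 49.2% of all genes had lower means. The lists were chosen with earlier results of these data known.

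Of 11 measured ligands 6 were lower and 5 higher, with a median of -0.078 and 0 at an unadjusted p under 0.05. The median was -0.13 without cafeteria replicate 1, -0.051 without cafeteria replicate 3 and 0.0085, the opposite sign, without cafeteria replicate 5. Gcg, the source of glucagon and of glucagon-like peptide 1, had means of 13.65 ± 0.05 (SD, n = 4) and 13.57 ± 0.13 (n = 5), and Sst, the ligand of the Sstr genes, 13.15 ± 0.05 and 12.88 ± 0.38. Sst values were 13.26 and 12.32 in cafeteria replicates 1 and 3, the highest and the lowest of all arrays, as in Sstr2. Pyy (peptide YY) differed by -0.30 (SE 0.20) and Cck (cholecystokinin) by -0.17 (SE 0.10).

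Of 40 other receptors and receptor partners measured in islets 24 were lower and 16 higher, with a median of -0.032. At an unadjusted p under 0.05 there was 1 on each side, where 3.28% of all genes were lower and 3.42% higher. Ramp1, a partner protein of the calcitonin receptor family, differed by -0.30 (SE 0.12), from 5.06 ± 0.30 to 4.76 ± 0.08. Cnr1, the cannabinoid receptor, differed by 0.26 (SE 0.11), from 4.27 ± 0.22 to 4.53 ± 0.15. Vipr2, a receptor for vasoactive intestinal peptide and PACAP in the same family as Glp1r, differed by -0.18 (SE 0.09), with 4 of 5 cafeteria arrays below every lean array. The adjusted p of each of these genes was 0.844 by limma.

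Of 19 G protein subunits 13 were lower and 6 higher, with a median of -0.071 (-0.028 to -0.045 without cafeteria replicate 3 or 5 or lean replicate 2 or 3) and 0 at an unadjusted p under 0.05. Gnai2, an inhibitory alpha subunit, differed by -0.34 (SE 0.20), and the beta and gamma subunits Gnb5 and Gng2 by 0.20 (SE 0.11) and 0.39 (SE 0.23). In Gnai2 only cafeteria replicate 3, at 9.69, was below every lean array.

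The cyclic AMP branch (adenylyl cyclases, protein kinase A, phosphodiesterases and their effectors) had 15 higher and 14 lower of 29 genes and a median of 0.0032, whose sign turned with most single arrays left out (-0.041 without cafeteria replicate 1). Crem, which encodes activators and repressors at cyclic AMP response elements, had log2 values of 6.30, 6.58, 6.62 and 6.62 in lean and 6.76, 6.97, 7.04, 7.499 and 6.96 in cafeteria samples. Every cafeteria array was above every lean array, as in 1.33% of all genes, and all 5 other probe sets of the gene had the same sign. Crem was named for the smallest unadjusted p of its list, and its probe sets share the same arrays, so nothing is read from this. The difference was 0.52 (SE 0.14; limma adjusted p = 0.844). Adcy6, an adenylyl cyclase, differed by -0.25 (SE 0.12), and Pde8a, a phosphodiesterase, by 0.22 (SE 0.12).

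The phospholipase C branch, which the muscarinic receptor uses, had 12 lower and 5 higher of 17 genes and a median of -0.078. At an unadjusted p under 0.05, 2 of the 17 were lower, where 3.28% of all genes were. The median was -0.036 without cafeteria replicate 3, -0.038 without lean replicate 3 and -0.13 without lean replicate 4. Dgka, a diacylglycerol kinase that is also abundant in T cells, differed by -0.42 (SE 0.15). Its highest value, 7.88, was in lean replicate 3, the array with the highest immune score. Of the 5 cafeteria arrays, 4 were below every lean array. The difference of Dgka with the immune score as a covariate was not reported, and whether immune cells had a part was not tested. Orai1, the pore of store-operated calcium entry, differed by -0.33 (SE 0.14), and Prkce, a protein kinase C, by -0.25 (SE 0.13).

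Regulators of receptor signalling (receptor kinases, arrestins and RGS proteins) had 13 lower and 8 higher of 21 genes and a median of -0.059. At an unadjusted p under 0.05, 3 of the 21 were lower, where 3.28% of all genes were. The 3 were Rgs4, Rgs12 and Rgs3, of the RGS family, whose proteins speed the shut-off of G protein alpha subunits. The list held 12 RGS genes, of which 8 had lower means and 4 (Rgs17, Rgs9, Rgs7 and Rgs14) higher ones, by up to 0.15. The median of the list was -0.011 without lean replicate 3 and -0.031 without cafeteria replicate 5, and it was -0.097 to -0.12 without cafeteria replicate 4 or lean replicate 1 or 4. Rgs4, known as a brake on muscarinic signalling in beta cells, had log2 values of 10.15, 9.92, 10.13 and 10.10 in lean and 9.91, 9.76, 9.68, 9.47 and 9.63 in cafeteria samples. The groups did not overlap, with lean replicate 2 and cafeteria replicate 1 next to each other, and the means of 10.08 ± 0.10 (SD, n = 4) and 9.69 ± 0.16 (n = 5) differed by -0.38 (SE 0.09; limma adjusted p = 0.844). Rgs12 differed by -0.22 (SE 0.09), also without overlap, and Rgs3 by -0.20 (SE 0.08). Rgs4, Rgs12 and Rgs3 were named for the smallest unadjusted p of the list, so nothing is read from their separation. Of the 137 pathway genes 2 were separate with lower cafeteria values (1.46%) and 1 with higher values (0.73%), beside 0.837% and 1.33% of all genes.

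**Figure D5:**
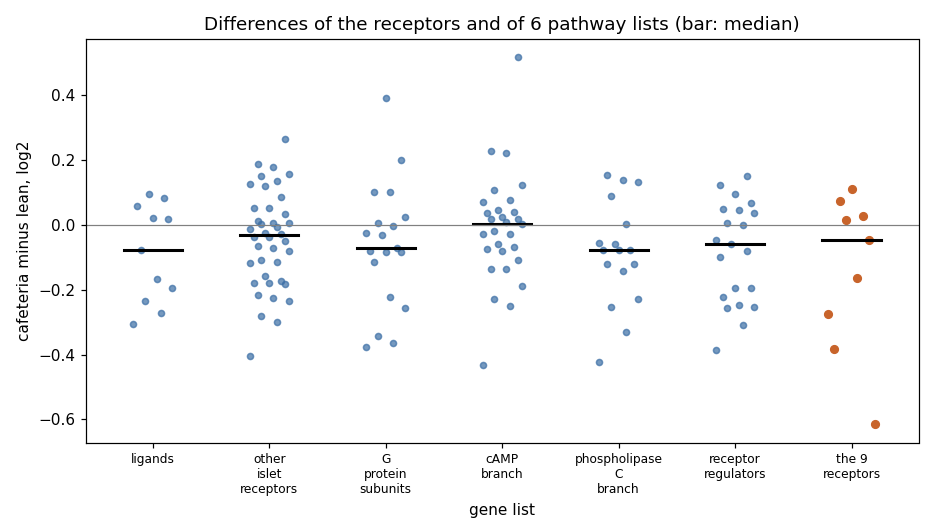
Difference between the groups (cafeteria minus lean, log2) of every measured gene of 6 pathway lists and of the 9 receptors, 1 point per gene, with the median as a bar. The medians of the lists lie between -0.078 and 0.0032, and Crem is the highest point at 0.52.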

How the data were processed

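Expression was measured in 9 islet samples, 4 of the lean and 5 of the cafeteria group, 1 array each. The deposited table holds log2 values per probe set; per the submitters' processing notes, RMA, R 2.7.0 and affy 2.0.1 were used, with no step given for each. RMA equalises the arrays, so a shift shared by most genes would be removed, and gives no detection call or depth; the number of arrays limits the precision. Of 31099 probe sets 57 controls were left out, and 31042 were tested. The platform annotation gave 20826 a single gene, 436 several and 9780 none. For each of 14217 genes the single-gene probe set with the highest mean stood; 5 receptors had 1 probe set and 4 had 2.

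Groups were compared by a two-sided moderated linear model (limma 3.58.1 under R 4.3.3) with no covariate and Benjamini-Hochberg adjustment over all probe sets. The fit was also run on simulated data. Simulated probe sets were independent of each other, so that run does not cover correlation between genes. Summaries used Python 3.11.15 and pandas 2.3.3. Members and lists were chosen with earlier results of these data known. Named from each pathway list were the 3 genes with the smallest unadjusted p, always Gcg and Sst, and 3 genes nearest to each of Gpr146, Glp1r and Gipr. Markers of ductal, stellate, adipocyte and Schwann cells were lower in 6 of 9, 5 of 9, 5 of 6 and 2 of 3 genes, alpha markers in 5 of 5 and beta markers in 4 of 7. Alternatives are in the closing section.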

Additional observations from a re-analysis of the deposited data

Results flagged for a closer look

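Sstr3 in cafeteria replicate 3 had a log2 value of 7.86, far from the nearest cafeteria sample at 8.54; this gap was 0.733 of the group's range, above the critical 0.71 of Dixon's test for 5 samples. It was the only 1 of 18 groups of receptor values past its limit, and chance alone passes about 1 in 20 such groups. Without this array the difference of Sstr3 was 0.18 in place of 0.026.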

How the results depend on the processing

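The number of probe sets at an adjusted p of 0.05 was 0 in the fit of all arrays, in every alternative run and at an adjusted p of 0.10; at an unadjusted p under 0.05 limma gave 1023 higher and 766 lower. Those counts were 1728 and 1685 with RNA quality as a covariate, 466 and 433 with brighter probe sets alone (fewer are tested), 561 and 432 with the immune score and 518 and 425 with the delta cell score, the last chosen after seeing the data; with array weights 1191 were lower. With 1 array left out they ranged from 689 to 1485 higher and from 517 to 1346 lower, the lower count being 1346 without lean replicate 1 and 1265 without cafeteria replicate 1. The limma adjusted p of the 8 receptors other than Gpr146 was 0.332 or more in all 12 alternatives and 9 fits with an array left out. The 0.332 was that of Glp1r with RNA quality as a covariate. Glp1r, Gipr and Gpr146 kept their sign in all of these fits. Glp1r ranged from -0.41 to -0.041, Gipr from -0.50 to -0.12 and Gpr146 from -0.73 to -0.35, where -0.35 came from the mean of both probe sets. Gpr146 is absent from the brighter probe sets. Nothing is read from its sign, since it was selected by its difference on these arrays. The sign turned for Chrm3 with RNA quality (-0.0075), array weights (-0.0055) and the delta cell score (-0.031), for Adra2a with the more variable probe set (-0.10) and the delta cell score (-0.081), for Sstr2 with the delta cell score (0.012), for Sstr3 with RNA quality (-0.013) and for Sstr5 with array weights (0.0092) and the delta cell score (0.079); the cause was not tested. With 1 array left out Glp1r ranged from -0.39 to -0.22, Gipr from -0.50 to -0.23, Gcgr from -0.11 to 0.17, Chrm3 from -0.15 to 0.13, Adra2a from 0.018 to 0.19, Sstr2 from -0.27 to -0.10, Sstr3 from -0.063 to 0.18, Sstr5 from -0.095 to 0.014 and Gpr146 from -0.73 to -0.55. The median of the brighter ligands was -0.21 and that of the brighter other receptors -0.072; with 1 array left out the list medians ranged from -0.13 to 0.0085 for ligands, -0.045 to -0.022 for other receptors, -0.077 to -0.028 for G protein subunits, -0.041 to 0.013 for the cyclic AMP branch, -0.13 to -0.036 for the phospholipase C branch and -0.12 to -0.011 for regulators. No paired analysis was possible because the labels give the samples letters that are not shared between the groups.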
